A study of Homo sapiens with 18 samples.

Results

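The exon parts described here are 573 of the 573909 exon-part probe sets on the arrays, 0.0998% of them and 0.56% of the 102287 with a 231T mean of at least 8 on the log2 scale. They were chosen because they were bright and far higher in 231T than in control cells. A probe set was taken when its mean over the 3 231T arrays was at least 8 on the log2 scale, its 231T mean lay at least 4 above its control mean, and its smallest 231T value lay above its largest control value. Every array was hybridised with RNA of MDA-MB-231, a widely used triple-negative breast cancer cell line, and each of 3 groups had 3 arrays. The 231T cells carried exogenous TRA2A from a vector. The PTX cells grew with 10 nM paclitaxel, which stabilises microtubules, and the control cells are labelled only as control. The vector's promoter, any empty vector in the controls, whether 231T is 1 clone and the length of drug treatment are not stated in the labels, and neither is whether replicate arrays stand for separate cultures. The p-values below therefore reflect spread among these arrays only, which may be technical.

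TRA2A is a splicing factor of the SR-related family, proteins with arginine and serine repeats that bind purine-rich sequences in pre-mRNA and promote the inclusion of exons. An exon-part probe set on this kind of array reads a stretch of exon that is spliced as a unit, so 1 gene has many, numbered along its chromosome. When the whole transcript becomes more abundant, most parts of the gene become brighter together; when splicing or another start or end changes, a single part can move away from its neighbours. TFRC, the transferrin receptor, brings iron into the cell, and CDC6, EXO1, CCNE2 and the ribonucleotide reductase genes RRM1 and RRM2 serve DNA replication and repair.

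The promoters of TFRC, which held the most chosen exon parts, and of CDC6, EXO1 and RRM1, replication genes with 8, 7 and 6, are shown as RefSeq gives them on GRCh38.p14. CCNE2, with 6, is not shown. Each stretch of 300 bases is written 5′ to 3′ on the gene's own strand. Capitals mark matches, on either strand, to 4 strings that resemble the binding site of E2F factors, which control many replication genes (TTTGGCGC, TTTCGCGC, TTTCCCGC and TTTGCCGC).
CDC6 at chr17:40287629-40287928, plus strand: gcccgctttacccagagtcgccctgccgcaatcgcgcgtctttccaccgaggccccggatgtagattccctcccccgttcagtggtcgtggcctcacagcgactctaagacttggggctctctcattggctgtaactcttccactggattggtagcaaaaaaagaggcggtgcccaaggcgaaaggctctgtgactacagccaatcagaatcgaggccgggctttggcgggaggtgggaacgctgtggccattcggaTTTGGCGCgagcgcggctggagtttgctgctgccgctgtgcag
EXO1 at chr1:241847954-241848253, plus strand: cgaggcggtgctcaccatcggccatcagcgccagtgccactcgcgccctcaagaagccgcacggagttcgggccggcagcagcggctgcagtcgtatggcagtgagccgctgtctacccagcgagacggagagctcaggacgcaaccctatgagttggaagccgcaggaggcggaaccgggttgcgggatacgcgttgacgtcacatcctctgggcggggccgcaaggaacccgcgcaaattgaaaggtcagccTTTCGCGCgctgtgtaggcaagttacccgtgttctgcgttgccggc
RRM1 at chr11:4094435-4094734, plus strand: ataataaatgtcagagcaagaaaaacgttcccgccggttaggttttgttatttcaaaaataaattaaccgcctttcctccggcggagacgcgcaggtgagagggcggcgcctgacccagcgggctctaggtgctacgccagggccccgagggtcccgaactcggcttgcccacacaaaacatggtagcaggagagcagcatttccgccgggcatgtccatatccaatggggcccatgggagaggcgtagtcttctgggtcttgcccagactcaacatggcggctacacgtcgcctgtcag
TFRC at chr3:196082041-196082340, minus strand: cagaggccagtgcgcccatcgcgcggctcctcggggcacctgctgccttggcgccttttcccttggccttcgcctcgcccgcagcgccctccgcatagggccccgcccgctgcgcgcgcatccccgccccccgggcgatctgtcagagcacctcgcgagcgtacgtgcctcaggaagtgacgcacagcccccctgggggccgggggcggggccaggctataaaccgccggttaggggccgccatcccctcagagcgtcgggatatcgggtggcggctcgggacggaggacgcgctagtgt
CDC6 and EXO1 each held 1 match, and RRM1 and TFRC held 0. Of all 35116 promoters in the table, 3.31% held at least 1. Among the first promoter of each gene, 18 of the 198 genes with a chosen exon part that were in the table held a match, 9.09%, against 3.33% of all 27305 genes. Every chosen exon part was bright, while the 27305 also include genes with no bright exon part. The share among genes with a bright exon part was not computed, so these percentages cannot separate the choice from brightness. Of 51 replication genes in the table, chosen or not, 22 held a match (43.1%). Of the 14 that also have a chosen exon part, 5 did (35.7%), a lower share, and no test was made. A match describes the letters only.

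TRA2A was examined at gene level as a check of the labels. TRA2A, the gene carried by the vector, had gene-level values of 9.37, 9.42 and 9.19 in 231T, 8.32, 7.82 and 7.60 in PTX, and 6.50, 7.15 and 6.95 in control cells on the log2 scale. Every 231T array lay above every PTX array, and every PTX array above every control array. The 231T minus control difference was 2.46, which uses the arrays that chose the exon parts and is given as a description. The PTX minus control difference was 1.04 with a standard error of 0.21, and its limma adjusted p of 0.0618 over 67528 transcript clusters missed the threshold of 0.05. With quantile normalization it was 1.10 with an adjusted p of 0.0428. How much of the TRA2A signal in 231T came from the vector was not tested. Vimentin (VIM), a marker of mesenchymal-like cells, averaged 13.12 ± 0.02 in 231T, 13.13 ± 0.02 in PTX and 13.16 ± 0.03 in control cells, while the luminal marker ESR1 averaged 3.57 ± 0.04 in 231T, 3.77 ± 0.09 in PTX and 3.74 ± 0.05 in control cells (SD, n = 3 each). Other markers were less even. Of 7 clusters for mesenchymal-like markers, 2 were called higher in 231T and 1 lower, with 231T minus control differences from -1.28 in AXL to 0.98 in CD44, and SNAI2 was called higher in PTX (PTX minus control 0.62, limma adjusted p = 0.047). Of 7 for luminal markers, 1 was called lower in 231T and 0 in PTX in either direction, and the keratins were bright, KRT18 averaging 12.27 ± 0.11 in 231T, 12.89 ± 0.05 in PTX and 12.56 ± 0.48 in control cells (SD, n = 3 each). The 10 gene-level clusters for markers of leukocytes, endothelium and fibroblasts had group means from 3.51 to 4.16 in 231T and control cells, close to ESR1, and 0 of these genes held a chosen exon part.

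One property of the files bears on every difference from 231T. Of 2995 probe sets listed in both the exon-level and the gene-level table, 100% had equal values, within 0.001, on each 231T array, against 0.200% to 2.14% on the PTX arrays and 0.100% to 2.87% on the control arrays. The exon-level values of PTX and control lay above their gene-level values by a median of 0.17 to 0.19, and by 0.37 for those with gene-level values between 6 and 8. The PTX and control arrays therefore had different values in the 2 tables while the 231T arrays did not. The split in scaling thus ran between 231T and the other arrays, as does every difference from 231T. In such a difference, scaling and the cells cannot be told apart. The median over all exon-level probe sets was 4.70 to 4.75 on the 231T arrays, 5.11 to 5.18 on the PTX arrays and 5.10 to 5.13 on the control arrays. How far scaling contributes to the differences was not tested, and scaling every array to a common median would have chosen 1109 exon parts.

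**Figure D1:**
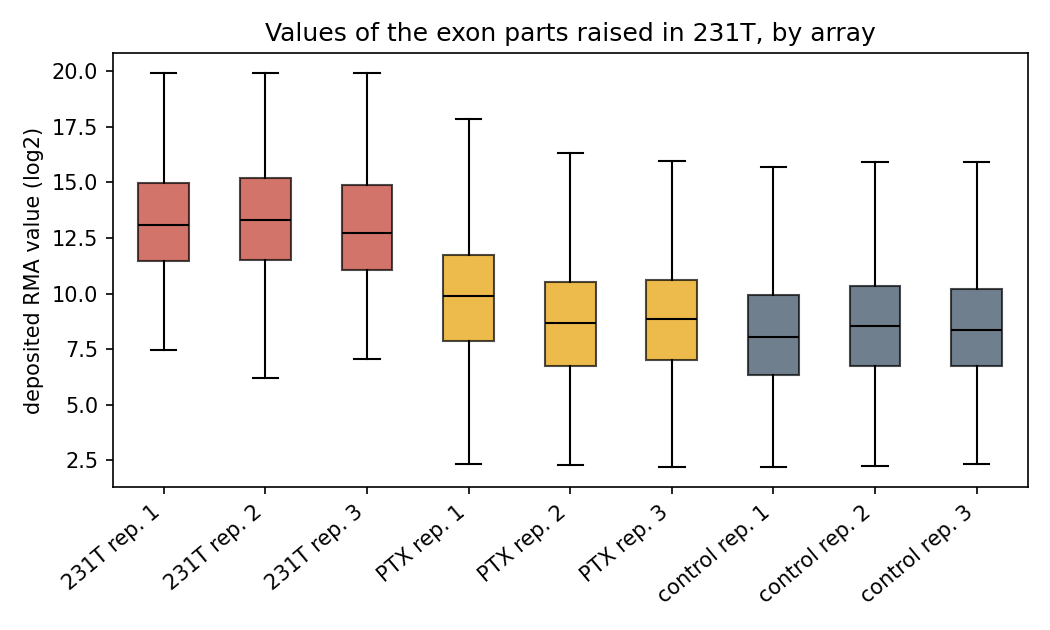
Values of the 573 chosen exon parts on each of the 9 arrays, on the deposited log2 scale. Boxes span the quartiles with the median as a line, and whiskers reach the lowest and highest value. The medians were 12.74 to 13.30 on the 231T arrays, which the choice fixes, and PTX replicate 1 had a median of 9.89, above the other 5 arrays of PTX and control cells.

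By the choice itself, the 573 exon parts had a median of 13.00 over their 231T means and 8.31 over their control means, and the median 231T minus control difference was 4.46, with a range of 4.001 to 10.05. In 314 of them the control mean was already at least 8, and in 46 it was below 5. The 231T mean exceeded 16 in 82, and values that high are above what a linear 16-bit reading allows, so differences were not read as folds of RNA. The members just inside the threshold were parts of FEZ2, DONSON and TXNDC9, with differences of 4.001, 4.004 and 4.006. The FEZ2 part had 9.41, 9.32 and 9.70 in 231T, 5.38, 4.07 and 4.13 in PTX, and 5.42, 5.40 and 5.60 in control cells. The DONSON part had 9.55, 9.92 and 8.70 in 231T, 6.70, 5.18 and 5.71 in PTX, and 5.38, 5.37 and 5.41 in control cells. The TXNDC9 part had 11.11, 10.33 and 10.61 in 231T, 8.15, 6.02 and 6.64 in PTX, and 6.75, 6.47 and 6.81 in control cells. In these 3 every 231T array lay above every PTX and control array, and PTX lay below the controls in FEZ2 and overlapped them in DONSON and TXNDC9. Just outside lay parts of LRPPRC, FRMD6 and RBM39, with differences of 3.999, 3.999 and 3.993. The LRPPRC part had 11.76, 12.76 and 11.42 in 231T, 10.12, 8.46 and 7.98 in PTX, and 7.09, 8.27 and 8.58 in control cells. The FRMD6 part had 16.44, 17.22 and 15.68 in 231T, 12.63, 10.89 and 12.20 in PTX, and 12.57, 12.53 and 12.25 in control cells. The RBM39 part had 15.32, 15.29 and 15.16 in 231T, 13.26, 11.66 and 11.38 in PTX, and 11.06, 11.31 and 11.43 in control cells. In these 3 too, every 231T array lay above every PTX and control array. Of 579 exon parts past both thresholds on the means, 6 were dropped because arrays overlapped.

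The platform annotation paired 454 of the 573 with a single gene, 238 genes in all, 1.08% of the 22074 genes with an exon part of their own and 2.13% of the 11151 with one whose 231T mean was at least 8. A further 28 were paired with several genes and were not named, and 91 had no gene listed here. Most genes gave a single exon part, 161 of the 238, while 30 genes gave 4 or more and together held 179. By running number, 154 of the 573 lay in runs of at least 2 consecutive chosen numbers (26.9%), and 314 had no other chosen exon part within 5 numbers. Parts in a run often belong to 1 gene and are not independent, so no interval is given for this share. Some running numbers have no exon part, so a run can also break at a missing number. With 1 skipped number allowed, the share in runs was 34.4%. There were 8 runs of 4 or more, all in 4 genes: TFRC, SERPINB8, CDC6 and TRA2A. The plot of these 4 genes shows every exon part of each.

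**Figure D2:**
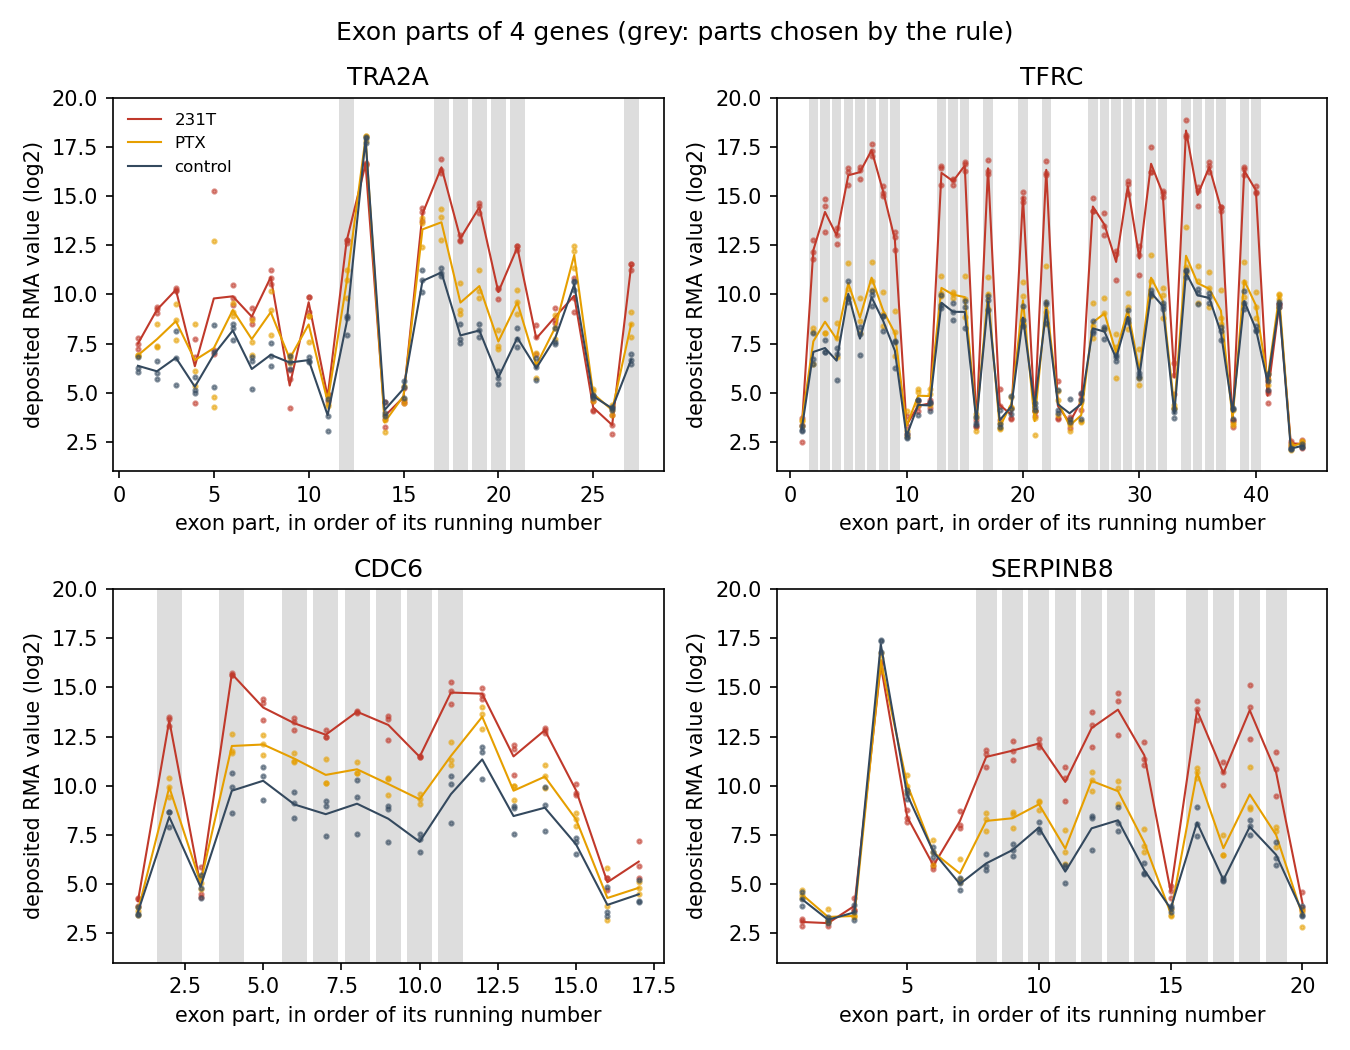
Every exon part of TRA2A, TFRC, CDC6 and SERPINB8 in order of running number, with the deposited log2 value on the vertical axis. Points are single arrays, lines join the group means, and grey marks the exon parts chosen. In TFRC the chosen parts cover 27 of 28 bright parts, while in TRA2A 1 part near 18 is lower in 231T than in the other groups.

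In TRA2A, 7 of 27 exon parts were chosen, 5 of them in a run from number 18753 to 18757 on code 7. The middle one, PSR07018755, had values of 14.17, 14.64 and 14.52 in 231T, 11.27, 9.84 and 10.18 in PTX, and 7.82, 8.51 and 8.17 in control cells. The 3 groups did not overlap, and PTX lay between 231T and control. Of the 11 other bright exon parts of TRA2A, those with a 231T or control mean of at least 8, 7 were higher in 231T by 2 or more, and 2 were lower. A part can count as bright through its 231T level alone. All 20 parts not chosen had a median difference of 1.10, and the 4 with a control mean of at least 8 had 0.58. PSR07018735, named after its values were seen, counts among the 7 through 231T replicate 2. It had 6.95, 15.26 and 7.18 in 231T and 8.47, 7.06 and 5.31 in control cells. PSR07018748, named after its values were seen, had 16.59, 16.67 and 16.64 in 231T, 17.80, 18.05 and 18.07 in PTX, and 18.00, 17.70 and 17.98 in control cells. It lies among the chosen parts by number, yet every 231T array was below every other array. PSR07018761, also named after its values were seen, went the other way from the chosen parts in 231T but not in PTX, with 10.85, 9.83 and 9.12 in 231T, 11.34, 12.24 and 12.46 in PTX, and 10.21, 10.67 and 10.64 in control cells. The exon parts of TRA2A thus did not share 1 shift. Of 10 bright junction probe sets of TRA2A, which read the seam between joined exons, 9 were higher by 2 or more, with a median of 4.001. Junctions count as bright by the same rule, here and in the genes below. They too can enter through their 231T level alone, and no count without this filter was made.

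TFRC held the most chosen exon parts, 27 of its 44, and 4 of the 8 long runs. Their 231T minus control differences ran from 4.89 to 8.47. In the run of 7 from 38089 to 38095 on code 3, the middle part PSR03038092 had 15.63, 15.77 and 15.12 in 231T, 10.07, 8.23 and 9.36 in PTX, and 8.74, 9.21 and 8.62 in control cells. The 231T arrays stood far above the rest, and PTX and control arrays overlapped. In the run from 38062 to 38065, PSR03038063 had 14.52, 14.88 and 13.20 in 231T, 9.77, 8.04 and 8.03 in PTX, and 7.07, 7.68 and 7.08 in control cells. In the run from 38067 to 38070, PSR03038068 had 17.04, 17.68 and 17.31 in 231T, 11.64, 10.24 and 10.68 in PTX, and 9.42, 10.19 and 9.97 in control cells. In both, PTX replicate 1 was the highest of the 6 arrays without exogenous TRA2A. In the run from 38097 to 38100, PSR03038098 had 15.45, 15.26 and 14.49 in 231T, 11.45, 9.59 and 10.69 in PTX, and 9.50, 10.08 and 10.30 in control cells. Of the 28 bright exon parts of TFRC, only 1 was not chosen, with a difference of -0.02, and all 17 bright junctions were higher in 231T by 2 or more, with a median of 6.27. The other 16 exon parts stayed below 8 in both groups. The gene-level value of TFRC was 12.45 ± 0.35 in 231T, 7.95 ± 0.52 in PTX and 7.47 ± 0.19 in control cells (SD, n = 3 each), and its PTX minus control difference of 0.48 did not pass limma (adjusted p = 0.564). Among 9 iron-handling genes measured, a list drawn up with earlier results known, TFRC was the only one with a chosen exon part, and the list's median 231T minus control difference was -0.04 against -0.06 for all clusters with 1 gene.

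In SERPINB8, a member of the serpin family of protease inhibitors, 11 of 20 exon parts were chosen, in 2 long runs on code 18. In the run from 2753 to 2757, PSR18002755 had 13.09, 13.73 and 11.99 in 231T, 10.71, 10.27 and 9.75 in PTX, and 6.73, 8.44 and 8.33 in control cells. In the run from 2759 to 2762, PSR18002760 had 10.72, 11.19 and 10.02 in 231T, 7.505, 6.49 and 6.47 in PTX, and 5.19, 5.31 and 5.13 in control cells. In both, the groups did not overlap and 231T replicate 3 was the lowest of its group. Of the 3 remaining bright parts, PSR18002744 and PSR18002746 had differences of -1.05 and -1.13, and PSR18002748 had 3.19. The locus was thus not raised along its whole length. All 3 lie at lower numbers than the chosen parts in the plot of the 4 genes, while 4 of 5 bright junctions were higher by 2 or more.

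CDC6, which loads the replicative helicase onto origins, had 8 of 17 exon parts chosen and a run of 6 from 5965 to 5970 on code 17. Its middle part PSR17005967 had 13.71, 13.77 and 13.82 in 231T, 10.66, 11.19 and 10.66 in PTX, and 7.57, 9.41 and 10.28 in control cells. The groups did not overlap, and control replicate 1 was the lowest array. All 5 other bright parts were higher in 231T, by a median of 3.35, as were 9 of 10 bright junctions by 2 or more. Unlike TRA2A and SERPINB8, CDC6 had 0 bright exon parts that were lower in 231T. At gene level CDC6 had 12.00 ± 0.21 in 231T, 9.67 ± 0.32 in PTX and 7.99 ± 0.63 in control cells (SD, n = 3 each).

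Of a list of 61 genes of DNA replication and repair, drawn up with earlier results of these data known, 16 had at least 1 chosen exon part, against 2.13% of all genes with an exon part whose 231T mean was at least 8. They held 52 exon parts, of which 8 are those of CDC6. At gene level, 44 of the 57 clusters of this list measured were called higher in 231T and 0 lower, with 7.16% of all clusters called higher and 8.85% called lower. This contrast chose the exon parts, so the count is a description. The list's median 231T minus control difference was 1.22 at gene level, against -0.06 for all clusters with 1 gene. In PTX minus control, 2 clusters of the list were called higher and 0 lower, with 0.228% of all clusters called higher and 0.74% lower.

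EXO1, an exonuclease of mismatch repair and end resection, had 7 chosen exon parts, with differences of 4.03 to 5.32. CCNE2, the cyclin E2 partner of CDK2, had 6 of its 12 bright parts chosen, with differences of 4.54 to 6.49, and the 6 other bright parts were all higher by 2 or more. Of those others, 0 had a control mean of at least 8, so they counted as bright through 231T alone. Without the brightness filter, the 19 other parts of CCNE2 had a median difference of 1.53. RRM1, the large subunit of ribonucleotide reductase, had 6 chosen exon parts, and RRM2, the small subunit, had 4. The exon parts of these 2 subunits differed in PTX: the median PTX minus control difference over chosen parts was 0.50 in RRM1 and 1.72 in RRM2, with no test of the difference between them. MCM8, a helicase of replication and repair, had 4 chosen exon parts with differences of 4.25 to 4.70. At gene level EXO1 averaged 9.32 ± 0.03 in 231T, 7.24 ± 0.43 in PTX and 6.42 ± 0.33 in control cells (SD, n = 3 each).

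**Figure D3:**
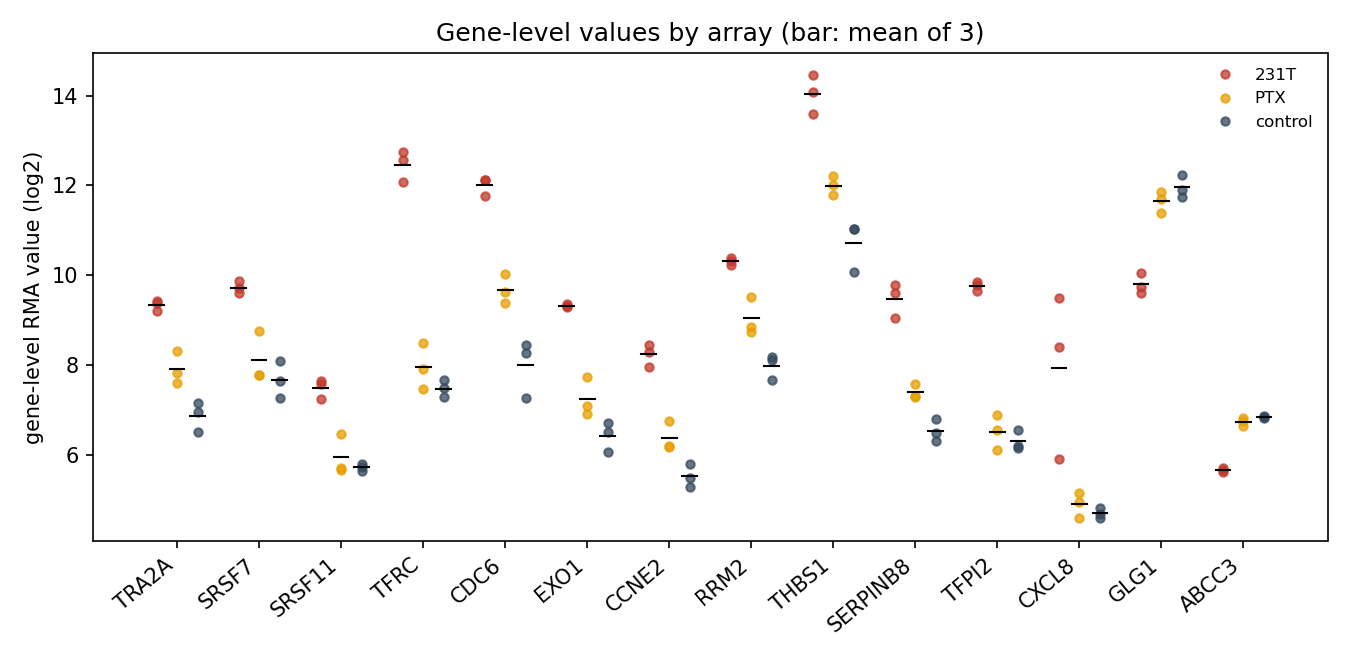
Gene-level log2 values of 14 genes with chosen exon parts, with 1 point per array and a bar at the mean of 3. TRA2A, TFRC, CDC6, EXO1, CCNE2, RRM2, THBS1 and TFPI2 have every 231T array above every PTX and control array. GLG1 and ABCC3, which each have 1 chosen exon part, have every 231T array below every PTX and control array.

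Of 14 SR proteins and SR-like factors, 5 had chosen exon parts, 15 in all: TRA2A with 7, SRSF11 with 3, SRSF7 and SRSF10 with 2 each and SRSF1 with 1. The 2 of SRSF10 had identical values on every array, 1 on code 1 and 1 on an unplaced contig, and are counted by the rule as 2. Without TRA2A, 4 of the other SR genes had a chosen exon part, and the share over all genes is the 2.13% given above. SRSF1, a founding SR protein, averaged 11.53 ± 0.15 in 231T, 9.70 ± 0.88 in PTX and 8.50 ± 0.33 in control cells at gene level (SD, n = 3 each). Of the 13 gene-level clusters of the list, 10 were called higher in 231T and 0 lower, with a median difference of 1.72, given as a description against the same 7.16%. In PTX minus control, 0 of the 13 passed limma in either direction, with adjusted p of 0.0558 for SRSF6 and 0.0618 for TRA2A. The hnRNPs, RNA-binding proteins that often act against SR proteins, had 4 chosen exon parts in 3 of 10 genes, HNRNPH1, HNRNPA2B1 and HNRNPM. The microtubule list had 0 chosen exon parts in 11 genes.

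Some genes of secreted and matrix proteins are given as examples, named after their values were seen and not from a list. THBS1, the matrix glycoprotein thrombospondin 1, had 6 chosen exon parts with differences of 4.17 to 7.23, and 25 of its 26 other bright parts were higher by 2 or more. TFPI2, an inhibitor of serine proteases in the matrix, had 6, with differences of 4.29 to 6.11 in 231T and a median of 0.55 in PTX. PLOD2, a lysyl hydroxylase that modifies collagen, and IGFBP3, which binds insulin-like growth factors, had 5 each. For THBS1 the gene-level means were 14.04 ± 0.43 in 231T, 12.00 ± 0.22 in PTX and 10.71 ± 0.55 in control cells (SD, n = 3 each), and for TFPI2 they were 9.76 ± 0.10 in 231T, 6.51 ± 0.39 in PTX and 6.30 ± 0.22 in control cells.

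The widest spans within 231T among the chosen exon parts were 6.89 in CXCL2 and 6.08 in CXCL8. CXCL8, the neutrophil chemokine interleukin 8, had all 5 of its bright exon parts chosen, and PSR04005640 had 13.69, 14.79 and 8.71 in 231T, 8.09, 6.96 and 9.49 in PTX, and 7.81, 7.93 and 7.05 in control cells. Replicate 3 lay more than 4 below the other 231T arrays and below PTX replicate 3. All 5 chosen CXCL8 exon parts had replicate 3 as the lowest 231T array. Their control means ran from 4.62 to 8.07, so most of them counted as bright through 231T alone. The 5 other exon parts of CXCL8 were dim and had a median 231T minus control difference of -0.02. Over all 573 chosen exon parts, replicate 3 was the lowest 231T array in 55.1%, replicate 1 in 30.0% and replicate 2 in 14.8%, and 39 of the 49 whose 231T values spanned more than 2 had replicate 3 lowest. Of the 10 others, replicate 1 was lowest in 8 and replicate 2 in 2, in CDH26 and CXCL2. CXCL2, a related chemokine, had 14.35, 7.45 and 13.31 in 231T, 4.93, 5.35 and 5.73 in PTX, and 4.97, 3.18 and 4.91 in control cells. CXCL2 had 0 other bright exon parts and a gene-level value that averaged 5.48 ± 0.06 in 231T, 5.44 ± 0.21 in PTX and 5.25 ± 0.11 in control cells (SD, n = 3 each).

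For each gene, the chosen exon parts were set beside its other bright exon parts. A part can count as bright through its 231T level alone, so this comparison leans towards parts that are high in 231T. In 118 genes, with 259 chosen exon parts, the other bright parts had a median difference of at least 2. In 36 genes, with 46, that median was between 1 and 2. In 9 genes, with 73, more than 1 part was chosen and the chosen parts made up at least 50% of all bright parts. A further 49 genes with 50 had fewer than 5 others to compare. The remaining 26 genes, each with 1 chosen exon part, had other bright parts with a median under 1, and in 14 of them that median was below 0. With no filter on brightness, the other exon parts had a median of at least 2 in 54 of 235 genes with at least 5 others, between 1 and 2 in 82 and under 1 in 99. With a filter on the control level alone, these counts were 85, 37 and 29 of 151 genes. The 118 genes thus depend on the filter: 51 of them kept a median of at least 2 without it. All 26 genes with a median under 1 kept it under 1 without the filter, 18 of them below 0. Within 2 numbers of an isolated member, 375 of 544 bright exon parts were higher by 2 or more (68.9%), against 8.03% of all bright exon parts, and 95.2% around members that were not isolated. Over all such neighbours, bright or dim, the median difference was 1.46 around isolated members and 3.42 around the others, against -0.30 over all exon parts.

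**Figure D4:**
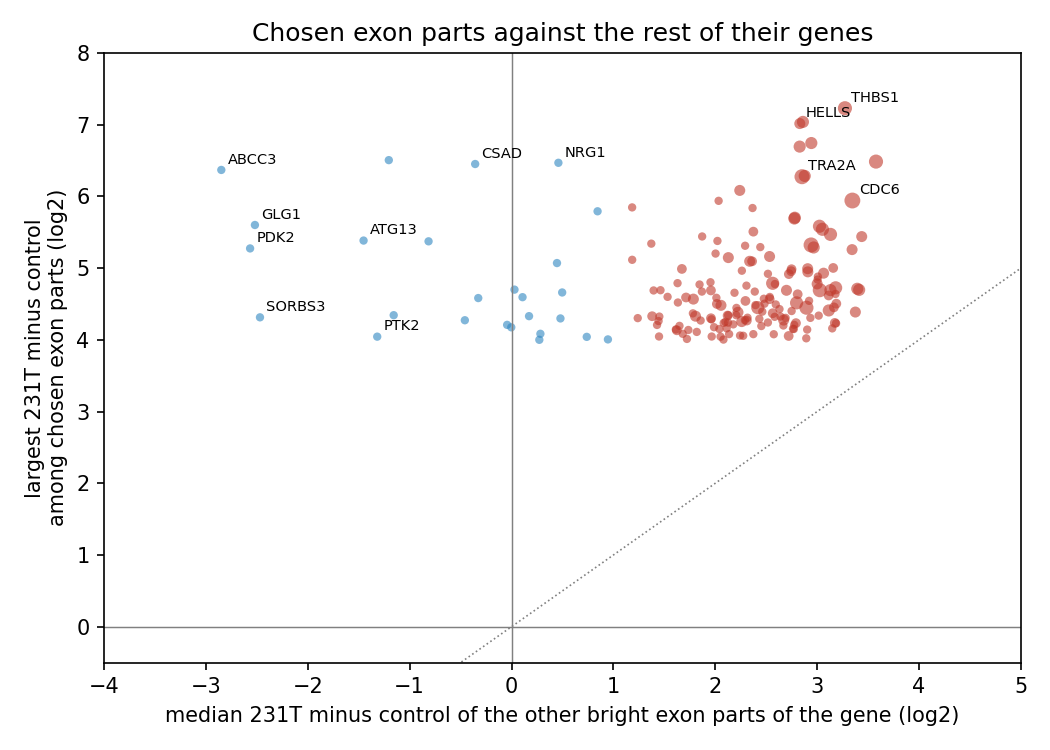
Each point is a gene with at least 5 other bright exon parts, with the median 231T minus control difference of those others on the horizontal axis and the largest difference among its chosen exon parts on the vertical axis, both on the log2 scale. Point size grows with the number of chosen exon parts, blue marks a median under 1, and the dotted line marks equal values. ABCC3, GLG1, PDK2 and SORBS3 lie at the left, with medians of -2.85 to -2.47 over their other parts.

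The 26 genes whose other bright parts had a median under 1 include 5 in which every other bright exon part was lower in 231T: ABCC3, GLG1, HOMER2, TMEM147 and SORBS3. They were named after their values were seen. In ABCC3, a drug and bile salt exporter, PSR17008771 had 14.70, 13.02 and 13.44 in 231T, 7.96, 8.79 and 8.67 in PTX, and 6.80, 8.63 and 6.62 in control cells. Its 22 other bright exon parts had differences of -4.54 to -1.41, and the gene-level value was 5.66 ± 0.04 in 231T, 6.73 ± 0.09 in PTX and 6.84 ± 0.01 in control cells (SD, n = 3 each). The part and the gene thus stood on opposite sides.

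In GLG1, a Golgi glycoprotein, PSR16017657 had 13.06, 13.87 and 13.92 in 231T, 7.66, 7.09 and 7.17 in PTX, and 7.18, 9.16 and 7.70 in control cells. All 29 other bright parts were lower in 231T, by a median difference of -2.52, and so were all 24 bright junctions. PTX lay within or below the control values, so the separation was between 231T and the other 6 arrays. In PDK2, a kinase that inhibits pyruvate dehydrogenase, PSR17008249 had 9.64, 9.89 and 9.95 in 231T, 4.76, 3.79 and 4.21 in PTX, and 4.10, 5.08 and 4.47 in control cells. Of its 15 other bright parts, 13 were lower in 231T. In ATG13, a factor of autophagy initiation, PSR11005038 differed by 5.38 while 23 of 25 others were lower, and in PTK2, focal adhesion kinase, PSR08022219 differed by 4.04 while 45 of 51 others were lower. NRG1, which encodes ligands of ErbB receptors, had a part with a difference of 6.47 while its 8 other bright parts had a median of 0.46. PDK2, ATG13, PTK2 and NRG1 were also named after their values were seen.

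The 10 isolated exon parts with the largest differences were mostly single bright parts in dim surroundings. At the top, PSR12022471 and PSR12031958 shared 1 set of values on every array, 13.25, 13.70 and 14.31 in 231T, 2.89, 2.94 and 5.13 in PTX, and 3.29, 3.86 and 3.98 in control cells. Neither had a gene listed, and their neighbours within 2 numbers were at 2.89 to 4.57 in 231T. A repeated set of values is 1 measurement for these purposes. Altogether 35 chosen exon parts shared their values with another, and keeping 1 of each left 554.

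RGS22, a regulator of G-protein signalling, had PSR08019083 at 11.64, 12.23 and 12.15 in 231T, 4.89, 4.53 and 3.74 in PTX, and 4.70, 3.59 and 2.81 in control cells. Its neighbours of the same gene were at 3.45 to 3.69 in 231T, so the part stood alone. SERPINA5, protein C inhibitor, had PSR14007274 at 11.21, 11.97 and 13.43 in 231T, 6.42, 4.86 and 4.18 in PTX, and 4.51, 4.42 and 3.98 in control cells, with neighbours at 3.42 and 3.79 in 231T. MIR9-1HG, the host transcript of a miR-9 gene, had PSR01052099 at 9.61, 11.86 and 11.40 in 231T, 3.19, 3.05 and 3.64 in PTX, and 3.23, 3.63 and 3.72 in control cells. In all 3 genes PTX and control arrays overlapped.

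PSR15004398, with no gene listed, had 11.93, 12.42 and 13.21 in 231T, 4.52, 5.51 and 6.12 in PTX, and 4.72, 4.66 and 4.79 in control cells. SGO2, which protects cohesin at centromeres, had PSR02017552 at 12.42, 14.23 and 13.99 in 231T, 6.39, 6.60 and 5.83 in PTX, and 6.38, 6.44 and 6.61 in control cells. UNC50, a protein of the Golgi membrane, had PSR02009428 at 8.65, 9.13 and 9.78 in 231T, 2.36, 2.29 and 2.19 in PTX, and 2.20, 2.27 and 2.34 in control cells, the lowest control level of the 10. SGO2's neighbours were slightly lower in 231T, by differences of -0.42, -0.82 and -1.22. HELLS, a chromatin remodeller of the SNF2 family, differed from the other 9, because its neighbours were higher too. Its PSR10007656 had 18.19, 16.95 and 16.92 in 231T, 14.14, 12.74 and 11.48 in PTX, and 11.05, 9.83 and 10.13 in control cells, and 18 of its 21 other bright parts were higher by 2 or more. Only 1 of those others had a control mean of at least 8. Without the brightness filter, the 41 other parts of HELLS had a median difference of 2.48.

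Paclitaxel-treated cells give the comparison that did not choose the exon parts, although it shares the control arrays with the choice, and low control values enter both. The median PTX minus control difference over the 573 was 0.69, with a range of -1.77 to 3.65, against 0.00 over all exon parts and -0.07 over the 102287 with a 231T mean of at least 8. The smallest PTX value lay above the largest control value in 190 of the 573 (33.2%), against 6.79% of all exon parts and 9.67% of those with a 231T mean of at least 8. The 231T values stayed above all PTX values in 568. PTX means were nearer to 231T than to control in 12.

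PTX replicate 1 carried much of this shift. The median difference from the control mean was 1.45 for PTX replicate 1, 0.25 for replicate 2 and 0.45 for replicate 3, and without replicate 1 the median PTX minus control difference was 0.35. PTX replicate 1 was the highest of the 3 PTX arrays in 463 of the 573 (80.8%), against 53.9% of exon parts with a 231T mean of at least 8 and 32.2% of all. Among the 259 in the 118 genes whose other bright parts had a median of at least 2, it was highest in 90.7%. Among the 26 in genes whose other bright parts had a median under 1, it was highest in 53.8%. These shares compare PTX arrays with each other and so do not involve the controls, but no test was made of them, and whether replicate 1 differed for a technical reason was not tested.

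In limma, fitted on 684791 probe sets with all 573 included, 3 chosen exon parts passed an adjusted p of 0.05 as higher in PTX than in control, and 0 as lower. Of all probe sets tested, 0.0302% were called higher. PSR07034865, which has no gene listed, had 13.96, 13.72 and 14.33 in 231T, 12.02, 13.45 and 12.87 in PTX, and 9.37, 10.08 and 9.60 in control cells (PTX minus control 3.10, SE 0.38, adjusted p = 0.0348). POLA1, the catalytic subunit of DNA polymerase alpha, had PSR0X001604 at 13.73, 14.03 and 13.12 in 231T, 11.81, 12.40 and 11.41 in PTX, and 9.43, 9.59 and 9.28 in control cells (2.44, SE 0.33, adjusted p = 0.0424). CDC6 had PSR17005969 at 11.46, 11.52 and 11.44 in 231T, 9.05, 9.56 and 9.32 in PTX, and 6.62, 7.52 and 7.30 in control cells (2.16, SE 0.29, adjusted p = 0.0408). In each of the 3, the PTX arrays lay between the other groups with no overlap. Leaving out any 1 of the 9 arrays ended all 3 calls, with 134 to 237 chosen exon parts then at an unadjusted limma p under 0.05, against 188 with all arrays (32.8%, with 4.74% of all probe sets).

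Further groups can be read from lists drawn up with earlier results known. Over all genes, 1.08% of those with an exon part of their own had a chosen one. Among genes with an exon part whose 231T mean was at least 8, the share was 2.13%. The chaperonin TRiC, which folds actin and tubulin, had 7 chosen exon parts in 2 of 8 genes, CCT2 and CCT8, and all 7 of its gene-level clusters measured were called higher in 231T. The proteasome, which degrades proteins, had 8 chosen exon parts in 5 of 32 genes, with 22 of 29 clusters called higher in 231T and 1 lower. The cytosolic aminoacyl-tRNA synthetases, which charge tRNAs, had 7 in 3 of 20 genes, NARS1, RARS1 and TARS1, with 10 of 25 clusters called higher and 8 lower. The inflammatory list had 10 in 6 of 13 genes, with 6 of 13 clusters called higher in 231T. These counts again use the arrays that chose the exon parts, beside 7.16% called higher and 8.85% lower over all clusters. In PTX minus control, 1 cluster of the proteasome list was called higher, and 0 of the other 3 lists in either direction.

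Some genes with similar differences in 231T had unlike values in PTX, as in these examples, named after their values were seen. ATP13A3, an ATPase of polyamine transport, had 6 chosen exon parts with a median of 4.22 in 231T minus control and -0.13 in PTX minus control. UAP1, which makes the sugar donor UDP-N-acetylglucosamine, had 5 and a PTX minus control median of -0.28. CDC6, with 8, had 1.97, and THBS1, with 6, had 1.87. Both comparisons share the control arrays, and no test was made between genes.

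At gene level, 230 genes with a chosen exon part could be matched by name, in 235 clusters. Their median 231T minus control difference was 1.73, with a range of -2.16 for GLG1 to 4.98 for TFRC, against -0.06 for all clusters with 1 gene. It was at least 2 in 92 clusters and below 0 in 18, so a chosen exon part did not always lie in a gene whose gene-level value was higher. In PTX minus control, 4 were called higher and 0 lower, with 0.228% of all clusters called higher: CDC6, HNRNPM, SLAMF7 and SLC43A3. HNRNPM, an RNA-binding protein of spliceosomal complexes, averaged 15.48 ± 0.15 in 231T, 15.27 ± 0.29 in PTX and 13.01 ± 0.60 in control cells (SD, n = 3 each, PTX minus control 2.26, SE 0.27, adjusted p = 0.0121). SLC43A3, a carrier of purine bases, averaged 11.92 ± 0.14 in 231T, 10.89 ± 0.11 in PTX and 9.43 ± 0.18 in control cells (SD, n = 3 each, PTX minus control 1.46, SE 0.12, adjusted p = 0.0039).

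By the code in their names, the chosen exon parts came from all autosomes and X, apart from the SRSF10 part on an unplaced contig. They had 0 on Y and on the 7 haplotype codes of chromosome 6. Among autosomes and X, as a share of the exon parts with a 231T mean of at least 8, they were most frequent on code 18, with 1.39%, code 8, with 0.937%, and code 7, with 0.883%, and least frequent on code 9, with 0.258%, and code 19, with 0.271%. Of the code 18 exon parts, 11 belonged to SERPINB8. Members in families of near-identical copies, such as SMG1P1 with 5 and ANKRD36B with 3, cannot be assigned to 1 copy with certainty.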

How the data were processed

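The authors deposited log2 values per array for exon-part, junction and gene-level probe sets of Affymetrix arrays, and the submitters' processing notes name Affymetrix Expression Console 1.3.1 and RMA, a method that removes background, brings arrays to a common distribution and combines the probes of each set. No source used here gives the settings or the genome build. The values were used as deposited. Exon parts were joined to genes through the platform annotation, with older symbols updated from RefSeq unless the newer symbol was already in use.

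PTX minus control was fitted in R 4.3.3 by limma 3.58.1 (linear model with empirical Bayes over all 9 arrays, Benjamini-Hochberg over all tested probe sets, threshold 0.05) after leaving out probe sets with a mean below the 25th percentile (3.89), and likewise for all 67528 gene-level clusters without a filter. The fit was run on simulated data with independent noise and some probe sets changed in PTX. Those data held no shift of a single array like that of PTX replicate 1, so they do not bear on it. Differences between 231T and control chose the exon parts and carry no test at the level of exon parts. The gene-level calls in 231T come from the same gene-level limma fit and threshold. They use the arrays that chose the exon parts and are descriptions only. Precision was limited by the 3 arrays per group.

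The exon parts named with every array are the 10 isolated ones with the largest difference, the middle of each run of at least 4, those called in PTX and the nearest at the threshold; others are said to be chosen after their values were seen or are named through a gene list or as examples. The members, lists and rules were chosen with earlier results of these data known. All 18 records, 9 exon-level and 9 gene-level, were used, and the descriptions of 2 control arrays give a line name with another last digit, while their cell line label gives MDA-MB-231.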

Additional observations from a re-analysis of the deposited data

How the results depend on the processing

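The number of exon parts chosen depended on the thresholds and on the scaling: 573 became 2666 with a minimum difference of 3, 137 with a minimum of 5, 820 with quantile normalization and 1109 with every array centred on its median, and 511 to 763 when 1 array was left out. The share in runs of consecutive numbers, 26.9%, was 38.8% at a minimum difference of 3, 34.4% with 1 skipped number allowed and 45.2% with 4 allowed, and 25.4% to 29.7% when 1 array was left out. The median PTX minus control difference over the chosen exon parts, 0.69, ranged from 0.35 to 0.95 when 1 array was left out, with PTX replicate 1 the lowest and PTX replicate 2 the highest. The 3 exon parts called higher in PTX by limma became 13 with the filter at the 50th percentile, 6 with quantile normalization and 9 with array weights, but 0 with control and PTX arrays alone, 0 with the replicate number as a block and 0 in every fit that left out 1 array. At an unadjusted p under 0.05 limma then had 179 with control and PTX alone and 173 with the block. The replicate numbers were not taken to pair the arrays, since deviations of same-numbered arrays correlated at -0.12 to 0.08. TRA2A at gene level had a PTX minus control difference of 0.84 to 1.20 when 1 array was left out (alternatives chosen after seeing the data) and 1.04 with the replicate block (adjusted p = 0.13), and with quantile normalization it passed at 1.10 (adjusted p = 0.0428). The cause of these changes was not tested. The 118 genes whose other bright parts had a median difference of at least 2 became 54 with no filter and 85 with a filter on the control level alone, both chosen after seeing the data. Values at the top of the scale and dim neighbours near the background limit what the arrays can resolve.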
